A study of Mus musculus with 18 samples.

Results

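The genes described here are 8 mouse genes of the PPAR alpha fasting response, namely *Ppara* itself and its targets *Cpt1a*, *Pdk4*, *Ehhadh*, *Fgf21*, *Plin2*, *Angptl4* and *Acot1*. They were taken by symbol, and all 8 were listed in both count tables, among 51826 genes of the liver table and 21959 genes of the table for primary mouse embryonic fibroblasts (MEFs). The study deleted repeat B of *Xist*, the RNA that coats and silences 1 X chromosome in female cells, with CRISPR/Cas9 in mice, for which its methods name ICR as the strain purchased. RNA-seq libraries read from their titles as homozygous deletion (RepB-/-) or wild-type (WT) were made from liver and MEFs, with 3 libraries of each genotype in each tissue, while brain was profiled as well but is not analysed here. No treatment is named for any group, and the age, feeding state and number of the animals behind the livers and MEFs are not given in the sources used here, so p-values measure the spread between these libraries. The study writes RepB-/- for females and RepB-/Y for males, but no label gives the sex of a library. The labels of the MEF libraries also carry the tissue entry tail.

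PPAR alpha is a nuclear receptor of hepatocytes that is activated by fatty acids released during fasting and binds DNA together with a retinoid X receptor. Its targets let the liver import and oxidise fatty acids, spare glucose, make ketone bodies and send hormone signals to other organs. Among the 8 genes, *Cpt1a* lets long-chain fatty acids enter mitochondria, *Ehhadh* is the bifunctional enzyme of peroxisomal beta-oxidation, *Acot1* releases free fatty acids from acyl-CoA in the cytosol, *Pdk4* blocks pyruvate dehydrogenase, *Plin2* coats lipid droplets, and *Fgf21* and *Angptl4* encode secreted proteins, a fasting hormone and an inhibitor of lipoprotein lipase. Several of these genes also respond to other PPARs, glucocorticoids or stress.

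PPAR alpha binds direct repeats of 1 half-site with 1 base between them, so the bases before the start of each gene were searched for AGGTCANAGGTCA on both strands with at most 2 mismatches over its 12 fixed bases. RefSeq promoters (GRCm38.p6) were found for 7 of the 8 genes, all but *Angptl4*, and 250 bases before the start were searched. *Plin2* held a match, and the other 6 held none in this window, whereas 3.24% of 32851 promoters held one. The *Plin2* promoter is shown because *Plin2* was the member that passed the test in MEFs, with the match in capitals, on the opposite strand to the gene. The promoters of *Acot1*, the member that passed when the livers were compared by replicate number, and of *Fgf21*, the member whose level varied most between livers, are shown for comparison and hold no match. The 3 regions, each written 5′ to 3′ on the strand of its gene, are chr4:86670060-86670309 (minus strand), chr12:84009252-84009501 (plus strand) and chr7:45615491-45615740 (minus strand).
Plin2: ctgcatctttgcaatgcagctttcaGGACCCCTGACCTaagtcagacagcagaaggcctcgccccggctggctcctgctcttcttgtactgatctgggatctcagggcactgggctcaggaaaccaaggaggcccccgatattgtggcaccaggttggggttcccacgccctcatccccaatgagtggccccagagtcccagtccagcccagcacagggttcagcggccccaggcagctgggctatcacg
Acot1: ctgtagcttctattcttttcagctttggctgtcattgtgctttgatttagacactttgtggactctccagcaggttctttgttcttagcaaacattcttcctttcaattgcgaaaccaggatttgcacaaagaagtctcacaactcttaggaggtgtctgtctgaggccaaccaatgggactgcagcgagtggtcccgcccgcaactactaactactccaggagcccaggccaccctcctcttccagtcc
Fgf21: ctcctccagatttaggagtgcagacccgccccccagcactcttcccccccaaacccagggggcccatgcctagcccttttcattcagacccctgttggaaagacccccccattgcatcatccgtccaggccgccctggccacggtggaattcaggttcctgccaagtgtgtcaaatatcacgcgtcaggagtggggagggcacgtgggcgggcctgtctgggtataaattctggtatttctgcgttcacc
A match is a string of letters and not a measured site of binding.

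Depth ran from 37682201 to 51542709 counts per liver library and from 11540344 to 20587556 counts per MEF library. Levels are given as CPM, counts scaled to a common total on library sizes scaled by the trimmed mean of M values (TMM). The hepatocyte markers, led by *Alb* and *Apoa1*, summed to between 110805 and 193107 CPM in every liver, and 7 of the 8 were listed. In the MEFs the same markers summed to between 0.557 and 2.41 CPM, with *Alb* at 3 counts or fewer in every library, whereas 7 fibroblast markers such as *Col1a1* and *Col3a1* summed to at least 13186 CPM. The liver library labelled RepB-/- replicate 2 stood apart, with 4 *Xist* counts against 14494 to 26345 in the other 5 livers, and with 4342 counts over 4 Y-linked genes against 0 or 1. By these counts it was a male library and the other 5 livers were female. A male with 1 X chromosome cannot be homozygous for an *Xist* deletion, so RepB-/- is only a label for it. The liver comparison of genotypes thus mixes sexes within RepB-/-. *Xist* was not listed in the MEF table, and the 4 Y-linked genes summed to 0 to 4 counts in each MEF library. Both replicate 1 livers also stood apart from the other 4. Their fetal liver markers *Afp*, *H19*, *Igf2*, *Dlk1* and *Gpc3* summed to 4753 and 5970 CPM, against 4.50 to 20.2 CPM in replicates 2 and 3 of both genotypes.

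Per unit of transcript length, *Plin2* was the most abundant of the 8 genes in liver, with a median of 247 TPM (transcripts scaled by length and depth, as deposited) and a range of 139 to 280 TPM over the 6 livers. *Ehhadh* followed with 107 to 160 TPM (median 121), *Cpt1a* with 65.9 to 260 TPM (median 114), *Ppara* with 20.7 to 54.1 TPM (median 38.4) and *Angptl4* with 4.76 to 45.7 TPM (median 22.0). *Acot1*, *Pdk4* and *Fgf21* were the lowest, with medians of 8.29, 8.10 and 3.38 TPM. The ranges of neighbours in this order overlapped except for *Cpt1a* and *Ppara*, so that *Plin2*, *Ehhadh* and *Cpt1a* stood above the other 5. In MEFs *Plin2* was again highest with 61.9 to 116 FPKM (fragments scaled by length and depth, as deposited), followed without overlap by *Angptl4* with 34.4 to 44.7 FPKM and then *Cpt1a* with 17.8 to 20.4 FPKM, which overlapped with *Pdk4* at 14.9 to 20.1 FPKM. *Ehhadh* had 1.63 to 2.51 FPKM in MEFs, and *Acot1*, *Fgf21* and *Ppara* did not exceed 0.929 FPKM in any MEF library.

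The comparison of RepB-/- with WT liver asked whether loss of repeat B was accompanied by a change of the fasting genes. None of the 8 passed edgeR's quasi-likelihood test at an adjusted p of 0.05. No member had an unadjusted p under 0.05, and DESeq2 also called 0. Over all genes the test called 6 of 16080 (0.0373%). In CPM the libraries of the genotypes overlapped for all 8 genes, where 8.05% of the tested genes had no overlap. In the deposited TPM every RepB-/- liver was below every WT liver for *Plin2* (139 to 246.6 TPM against 246.8 to 280 TPM). The median log2 fold change of the 8 was -0.03, beside 0.01 over all tested genes. In simulated livers of this depth and spread this test recovered 0% of genes changed by 1 or 2 log2 units, so a change of that size was not detectable.

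*Ppara*, the receptor gene, was at 62.3, 79.9 and 50.3 CPM in RepB-/- replicates 1, 2 and 3 and at 59.3, 39.8 and 50.4 CPM in WT replicates 1, 2 and 3. The RepB-/- replicate 2 library, which carried the Y-linked counts, was the highest, and the genotypes overlapped. The log2 fold change was 0.36 ± 0.25 (SE, n = 3 against 3, adjusted p = 1.00 by edgeR) and 0.17 ± 0.25 without that library.

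Of the 2 secreted proteins, *Fgf21* had 3.61, 3.32 and 0.408 CPM in RepB-/- livers and 11.4, 0.517 and 0.702 CPM in WT livers, from 183, 167, 14, 509, 20 and 33 counts. The highest liver was 27.8 times the lowest, and both genotypes held high and low livers. Its log2 fold change was -0.77 ± 1.31 (SE). The sign depended on a single liver, since without WT replicate 1 the value was 2.01. *Angptl4* had 47.1, 54.6 and 37.4 CPM in RepB-/- livers, and 67.6, 8.14 and 10.9 CPM in WT livers. The 3 RepB-/- livers lay close together, inside the wide range of the WT livers, and the mean was 46.4 ± 8.64 CPM (SD, n = 3) against 28.9 ± 33.6 CPM (SD, n = 3), with a log2 fold change of 0.68 ± 0.79 (SE) that was 2.29 without WT replicate 1, 0.25 without WT replicate 2 and 0.30 without WT replicate 3.

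*Cpt1a* showed the same arrangement as *Angptl4*, with 484, 322 and 397 CPM in RepB-/- livers and 557, 169 and 167 CPM in WT livers. WT replicate 1 was the highest liver and the other 2 WT livers were the lowest, which gave a log2 fold change of 0.43 ± 0.53 (SE). Without WT replicate 1 it was 1.25, without WT replicate 2 or 3 it was 0.15, and without RepB-/- replicate 1 it was 0.27. *Ehhadh* had 195, 240 and 277 CPM in RepB-/- livers and 164, 255 and 284 CPM in WT livers, with a log2 fold change of 0.02 ± 0.30 (SE). The replicate 1 liver was the lowest of each genotype.

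*Pdk4*, the kinase that restrains glucose oxidation, had 20.0, 7.94 and 7.76 CPM in RepB-/- livers and 14.9, 16.3 and 16.4 CPM in WT livers. Here the WT livers were close together and the RepB-/- livers lay on both sides of them, with a log2 fold change of -0.41 ± 0.40 (SE) that was -1.01 without RepB-/- replicate 1, -0.19 without RepB-/- replicate 2 and -0.17 without RepB-/- replicate 3. *Plin2* had 143, 272 and 208 CPM in RepB-/- livers and 207, 238 and 216 CPM in WT livers, a log2 fold change of -0.08 ± 0.29 (SE). *Acot1* had 2.13, 17.7 and 8.60 CPM in RepB-/- livers and 3.46, 11.5 and 18.3 CPM in WT livers, a log2 fold change of -0.22 ± 0.83 (SE). In both genotypes the replicate 1 liver was the lowest for *Plin2* and for *Acot1*.

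**Figure D1:**
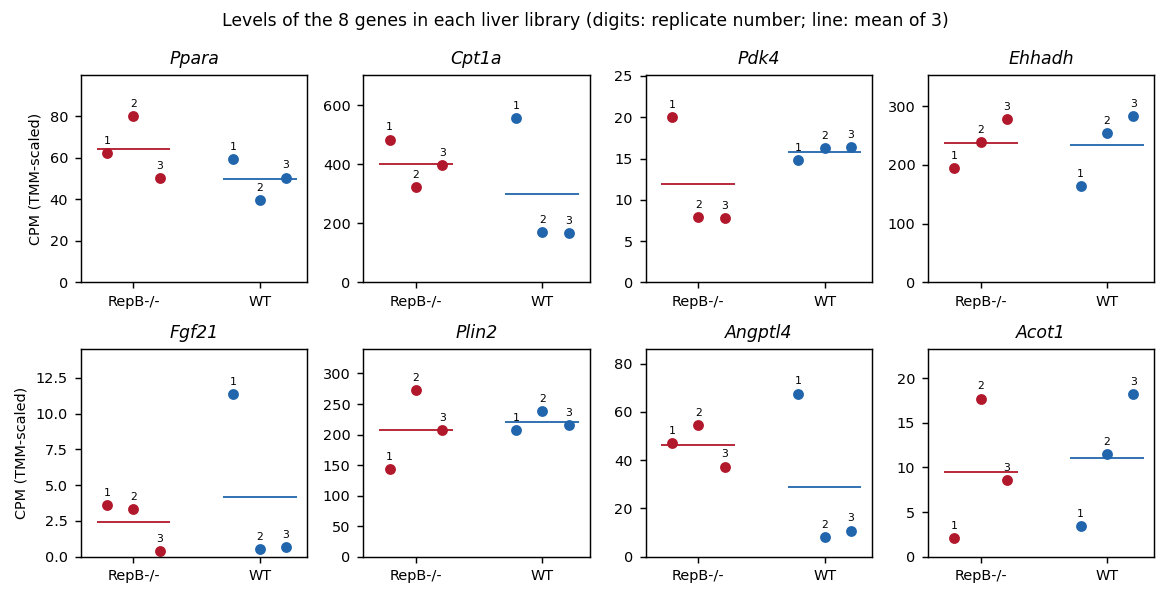
Each panel plots the level of 1 gene in CPM on TMM-scaled library sizes (vertical axis, from 0) for the 6 liver libraries, with RepB-/- in red, WT in blue, the replicate number above each point and a line at the mean of 3. The genotypes overlap in all 8 panels, and for *Cpt1a*, *Fgf21* and *Angptl4* the WT replicate 1 liver lies far above the other 2 WT livers.

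The livers were next compared by replicate number, replicate 1 of both genotypes (n = 2) against replicates 2 and 3 (n = 4), with genotype in the model. This split was taken up with earlier results of these data known, so its p-values are no independent evidence that the libraries differ. *Acot1* fell, with 2.13 and 3.46 CPM in replicate 1 and 8.60 to 18.3 CPM in the other 4 livers, a log2 fold change of -2.36 ± 0.40 (SE, edgeR adjusted p = 0.0154). It was the only 1 of the 8 past the threshold in edgeR, where 15.4% of 16080 genes were called (8.41% higher and 6.98% lower). An unadjusted p under 0.05 was found for 5 of the 8 and for 5197 of the 16080 genes. The test no longer called *Acot1* without the RepB-/- replicate 1 liver (adjusted p = 0.122) or without the WT replicate 1 liver (adjusted p = 0.103), each of which leaves 1 library in the arm that is assumed to vary like the rest. Of the stretches of 100 bases in *Acot1* transcripts, 12.4% also occur in other genes, mainly its neighbours and close relatives *Acot2* and *Acot3*, so its count is uncertain by reads shared with them.

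The other 7 genes split in direction. *Cpt1a* (484 and 557 CPM in replicate 1 against 167 to 397 CPM) and *Fgf21* (3.61 and 11.4 CPM against 0.408 to 3.32 CPM) were higher in both replicate 1 livers than in any other, an arrangement found in this direction in 23% of the tested genes. *Ehhadh* (164 and 195 CPM against 240 to 284 CPM) and *Plin2* (143 and 207 CPM against 208 to 272 CPM) were, like *Acot1*, lower in both than in any other, as were 21.3% of the tested genes. For *Ehhadh* and *Plin2* this held in CPM and not in the deposited TPM. There RepB-/- replicate 3 (107 and 139 TPM) lay below RepB-/- replicate 1 (115 and 144 TPM). In CPM the members with either arrangement thus did not move 1 way. The log2 fold changes were 1.13 ± 0.32 (SE) for *Cpt1a* with an edgeR adjusted p of 0.0598, 2.83 ± 1.02 for *Fgf21* with 0.112, 1.66 ± 0.62 for *Angptl4* with 0.124, and -0.56 ± 0.19 for *Ehhadh* with 0.105.

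In CPM *Angptl4*, *Pdk4* and *Ppara* overlapped between replicate 1 and the other livers. In the deposited TPM both replicate 1 livers lay above every other for *Pdk4* (10.4 and 8.70 TPM against 2.75 to 8.14 TPM). For *Angptl4* the 4 highest livers were WT replicate 1 and all 3 RepB-/- livers, and for *Fgf21* the 3 highest were WT replicate 1 and RepB-/- replicates 1 and 2. *Pdk4* had a log2 fold change of 0.67 ± 0.33 (SE), *Plin2* of -0.43 ± 0.23 and *Ppara* of 0.17 ± 0.25, with edgeR adjusted p-values of 0.221, 0.259 and 0.674. Leaving out a library brought some of these past the threshold, namely *Cpt1a* (adjusted p = 0.0448) and *Angptl4* (0.0233) without RepB-/- replicate 1, *Cpt1a* (0.0456) without RepB-/- replicate 3 and *Fgf21* (0.0111) without RepB-/- replicate 2, in which Y-linked genes were counted. Without WT replicate 1 the values dropped to 0.43 for *Cpt1a* (adjusted p = 0.447), 0.93 for *Fgf21* (0.679) and 0.03 for *Angptl4* (0.972). DESeq2 called 5 of the 8, adding *Cpt1a*, *Fgf21*, *Angptl4* and *Ehhadh* to *Acot1*, where it called 4140 of 18532 genes.

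Markers of several other cell types moved with the same split. All 4 tested fetal liver markers were higher in replicate 1, as were 4 of 6 erythroid markers (*Hba-a1* at 2.19 on the log2 scale), 4 of 7 fibroblast and stellate markers (*Col1a1* at 3.26) and 2 of 4 endothelial markers, whereas of 7 tested hepatocyte markers 1, *Hnf4a*, was lower (-0.80). Over all genes 8.41% were higher and 6.98% lower. Of 5 macrophage and leukocyte markers edgeR called 0, with 3 under an unadjusted p of 0.05, and DESeq2 called 0. Their sums overlapped, with 214 and 287 CPM in replicate 1 against 254 to 345 CPM. The erythroid markers summed to 1305 and 3578 CPM in replicate 1 and to between 213 and 1816 CPM in the other livers, and the fibroblast and stellate markers to 908 and 1361 CPM against 256 to 462 CPM. The hepatocyte sums overlapped, with 110805 and 151355 CPM in replicate 1. The adipocyte markers *Adipoq*, *Lep*, *Plin1* and *Retn* were at 3 counts or fewer in every liver. Fewer cells of a type and less RNA per cell cannot be told apart in such bulk samples, and the part of these markers in the values of the 8 genes was not tested.

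**Figure D2:**
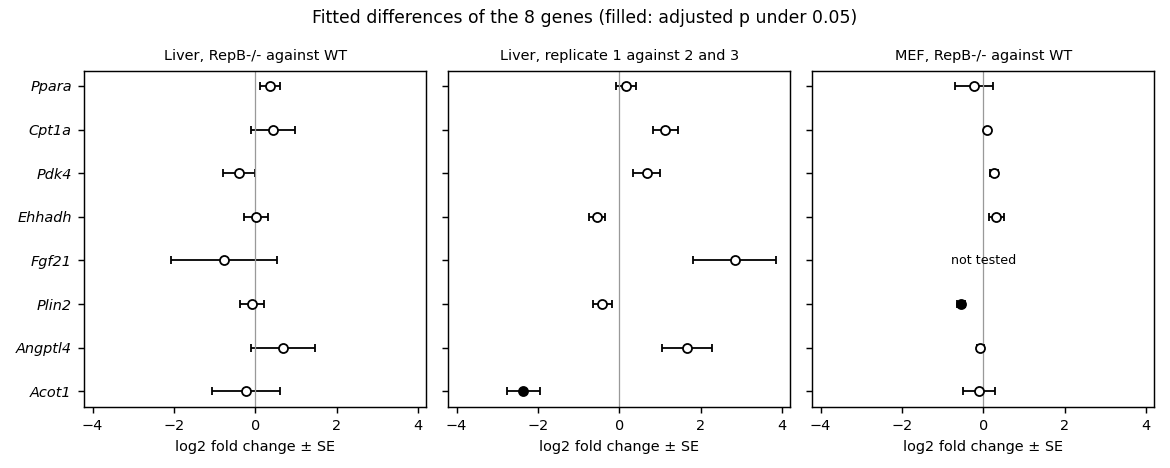
Log2 fold changes (horizontal axis) of the 8 genes with their standard errors as bars, for genotype in liver, for replicate 1 against replicates 2 and 3 in liver and for genotype in MEFs, where a positive value is higher in RepB-/- or in replicate 1. Filled points passed an adjusted p of 0.05, which only *Acot1* did in the replicate comparison and only *Plin2* in MEFs, and *Fgf21* in MEFs was not tested because of its low counts.

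With the replicate 1 term in the model, genotype again called 0 of the 8 in edgeR, with 0 under an unadjusted p of 0.05, and 0 in DESeq2. Over all genes this fit called 0.056%. The lowest p-values were those of *Angptl4* (log2 fold change 1.39 ± 0.61, SE, adjusted p = 0.641) and *Cpt1a* (0.67 ± 0.31, SE, adjusted p = 0.645). This fit was simulated only with changes placed between replicate 1 and the other livers. There its replicate 1 term recovered 4.12% of genes changed by 1 log2 unit and 61.2% of genes changed by 2 units. Recovery of a genotype change in this fit was not simulated.

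The genotype difference had opposite directions in replicate 1 and in replicates 2 and 3 for 6 of the 8 genes, all but *Ppara* and *Acot1*. The share of all genes with such a turn was not computed, so this count is not read as a trait of these genes. *Ehhadh* was at 1.19 times WT in replicate 1 and 0.959 times in replicates 2 and 3, and *Plin2* at 0.692 and 1.06 times. In replicates 2 and 3 the mean of the RepB-/- livers was 4.84 times that of WT for *Angptl4*, 3.07 times for *Fgf21* and 2.14 times for *Cpt1a*, and in replicate 1 the RepB-/- liver had 0.696, 0.318 and 0.868 times the WT level. *Pdk4* was the other way round, at 0.481 times WT in replicates 2 and 3 and 1.35 times in replicate 1. *Ppara* was at 1.44 and 1.05 times WT. The interaction of genotype and replicate 1 tests this difference with 2 residual degrees of freedom. It called 0 of the 8 in edgeR after adjustment (0.0124% over all genes), and no other tool was run. An unadjusted p under 0.05 was found for 3 of the 8 and for 866 of 16080 genes. The 3 members were *Angptl4* (-2.80 ± 0.48, SE, adjusted p = 0.528), *Pdk4* (1.49 ± 0.34, SE, adjusted p = 0.746) and *Cpt1a* (-1.30 ± 0.40, SE, adjusted p = 0.877), where a positive value means a larger RepB-/- excess in replicate 1. In replicates 2 and 3 alone, the log2 fold changes were 2.28 ± 0.29 for *Angptl4*, 1.10 ± 0.23 for *Cpt1a* and -1.05 ± 0.21 for *Pdk4*, with edgeR adjusted p-values of 0.112, 0.266 and 0.235. In this subset 1 of the 2 RepB-/- livers was the library with Y-linked counts.

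Around the 8 genes, 78 genes in 9 lists of the pathway were followed, covering peroxisomal, mitochondrial and microsomal fatty acid oxidation, ketogenesis, uptake, thioesterases, lipid droplets, receptor partners and relatives of the members. Genotype called 0 of the 75 tested in liver in edgeR, with 4 under an unadjusted p of 0.05, and 0 in DESeq2. With the replicate 1 term edgeR again called 0, with 12 under an unadjusted p of 0.05, and DESeq2 called 3. Over all genes 502 of 16080 had an unadjusted p under 0.05 for genotype alone, and 1273 of 16080 with the replicate 1 term. DESeq2 called 80 of 18811 and 327 of 18032 genes in these fits. In the test of genotype alone the 2 most abundant genes of each list ranged from -1.06 for *Acot4*, a peroxisomal thioesterase, to 2.02 for *Cyp4a14* on the log2 scale. Between these lay *Mgll* at -0.62, *Acaa2* of mitochondrial oxidation at 0.06, *Fabp1*, the liver fatty acid-binding protein, at 0.35, *Pnpla2* at 0.52 and *Cyp4a10* at 0.64. *Cyp4a14*, like *Cyp4a10* a microsomal omega-hydroxylase, spread from 0.365 CPM in WT replicate 2 to 487 CPM in RepB-/- replicate 3. Of the 10 genes of the fasting and glucocorticoid response outside PPAR alpha, 9 had a log2 fold change above 0 for genotype (median 0.61), and edgeR called 0, with 1 under an unadjusted p of 0.05, and DESeq2 called 0. With the replicate 1 term the median was 0.84, edgeR called 0, with 6 under an unadjusted p of 0.05, and DESeq2 called 4. All 6 erythroid markers were above 0 as well, with medians of 1.86 and 2.28 in these fits, where edgeR called 0, with 2 and 5 under an unadjusted p of 0.05, and DESeq2 called 0 and 4. So were all 7 fibroblast and stellate markers (medians of 0.25 and 0.28), and 4 and 3 of the 4 tested fetal liver markers (medians of 0.38 and 0.47). Of the 5 macrophage and leukocyte markers 1 was above 0 in each fit. The erythroid markers summed to 1089 to 3578 CPM in RepB-/- livers and to 213 to 1305 CPM in WT livers. The share of all genes above 0 was not computed, so these counts are not read as traits of the lists. The median log2 fold change over all tested genes was 0.01 in each fit. The part of these lists in the genotype values of the 8 genes was not tested.

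The replicate comparison called 13 of the 75 (17.3%), 8 higher and 5 lower, beside 15.4% of all genes. DESeq2 called 26 of the pathway genes, where it called 4140 of 18532 genes. *Pex11a*, a peroxisome division factor, fell by 1.02 on the log2 scale, whereas *Abcd2*, a peroxisomal fatty acid transporter, rose by 1.76. Of the ketogenic genes *Bdh1* (1.10) and *Acat1* (0.98) rose. Of 11 mitochondrial oxidation genes edgeR called 0, with 3 under an unadjusted p of 0.05 and 1 called by DESeq2. *Vnn1*, a pantetheinase and known PPAR alpha target, rose by 3.19, with 27.2 and 51.5 CPM in replicate 1 against 2.60 to 7.11 CPM.

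Among the receptors and partners in the replicate comparison, *Ppard* (-1.45) and *Rxrg* (-1.28) fell, and both are other ligand-bound nuclear receptors. Among the relatives of the members, *Lpl*, the lipase that ANGPTL4 inhibits, rose by 3.27, *Pdk3* by 3.02, *Fgfr1*, an FGF receptor, by 1.65 and *Gpihbp1*, the endothelial anchor of LPL, by 1.41. *Cyp4a12a* fell, but its 39625 counts in the RepB-/- library with Y-linked counts, against 305 to 3341 in the other replicate 2 and 3 livers and 6 and 0 in replicate 1, make the size of its change uncertain. Of 10 genes of the fasting and glucocorticoid response that are not typical PPAR alpha targets, 5 rose and 0 fell, where 8.41% of all genes rose. The 5 rose as follows, on the log2 scale, *Igfbp1*, an IGF-binding protein, by 5.18, *Per1* by 2.21, *Irs2* by 1.91, *Pck1*, of gluconeogenesis, by 1.46 and *G6pc* by 1.16. No gene passed in the thioesterase list (0 of 5, with 0 under an unadjusted p of 0.05 and 0 in DESeq2) or the lipid droplet list (0 of 8, with 2 under an unadjusted p of 0.05 and 2 in DESeq2).

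**Figure D3:**
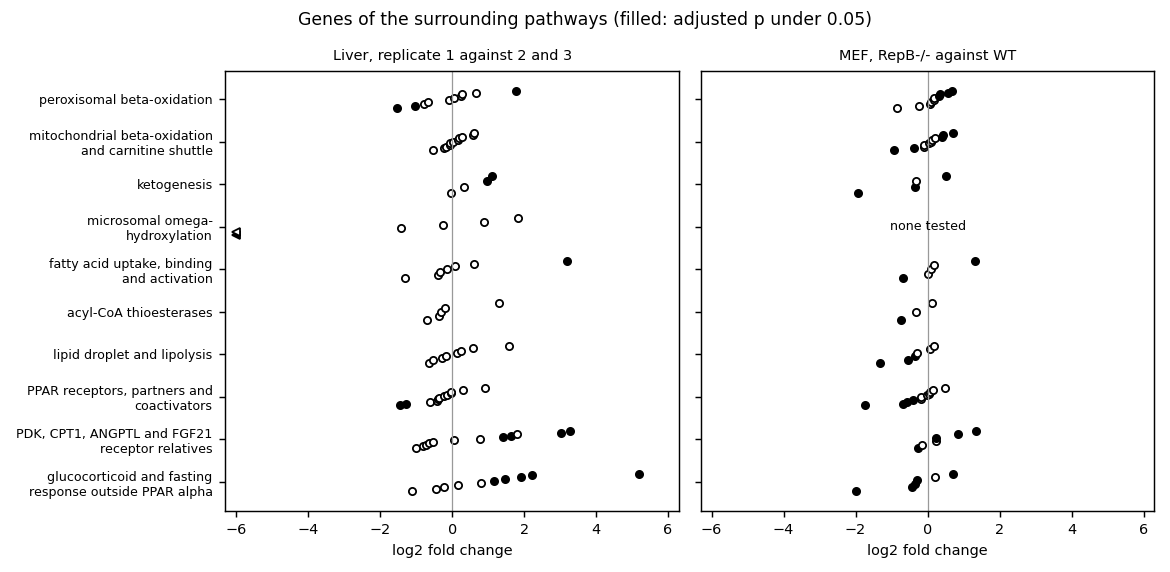
Log2 fold changes (horizontal axis) of every tested gene in 10 lists around the 8 genes, for replicate 1 against replicates 2 and 3 in liver and for genotype in MEFs, with filled points past an adjusted p of 0.05 and triangles for values below the axis. In liver the filled points of the glucocorticoid and fasting list all lie above 0, and in MEFs filled points lie on both sides in 5 of the 10 lists.

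In MEFs, which are fibroblasts rather than liver cells, *Plin2* fell in RepB-/- cells, with 227, 258 and 295 CPM against 356, 406 and 376 CPM in WT. Every RepB-/- library lay below every WT library, as for 25.8% of the 13306 tested genes. The log2 fold change was -0.55 ± 0.09 (SE, n = 3 against 3, edgeR adjusted p = 0.000499). It was 1 of the 7 members tested that passed, where 39.1% of all genes were called, so 1 of 7 is a lower share than the background. DESeq2 called *Plin2* as well. Of these 39.1%, 19.4% were higher and 19.7% lower, and on library size alone 31.2% of the calls were higher in place of 49.6%. On that scale *Plin2* had a log2 fold change of -0.66.

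The other members were close between the MEF genotypes. *Pdk4* had 73.5, 65.1 and 54.4 CPM in RepB-/- cells and 54.6, 53.7 and 53.8 CPM in WT cells, a log2 fold change of 0.25 ± 0.10 (SE, edgeR adjusted p = 0.0557). The 3 WT libraries were nearly equal, and the lowest RepB-/- library lay just under the highest of them. Without RepB-/- replicate 3, *Pdk4* passed the test (0.37, adjusted p = 0.00815), and so it did without WT replicate 1 (0.26, adjusted p = 0.0392). *Cpt1a* had 150 to 154 CPM in RepB-/- and 126 to 152 CPM in WT cells, and *Angptl4* had 127 to 143 CPM and 130 to 157 CPM. Their log2 fold changes were 0.09 ± 0.08 and -0.08 ± 0.08 (SE). In the deposited FPKM every RepB-/- library lay below every WT library for *Angptl4* (34.4 to 38.6 FPKM against 39.6 to 44.7 FPKM). *Ehhadh* was at 4.49 to 7.80 CPM, *Acot1* at 1.01 to 3.37 CPM and *Ppara* at 0.495 to 1.76 CPM over the 6 libraries, with log2 fold changes of 0.31 ± 0.19, -0.11 ± 0.39 and -0.23 ± 0.47 (SE). *Ppara* was counted 8 to 22 times per library and *Fgf21* 4 to 11 times, and *Fgf21* was left out of the test by the filter on low counts.

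**Figure D4:**
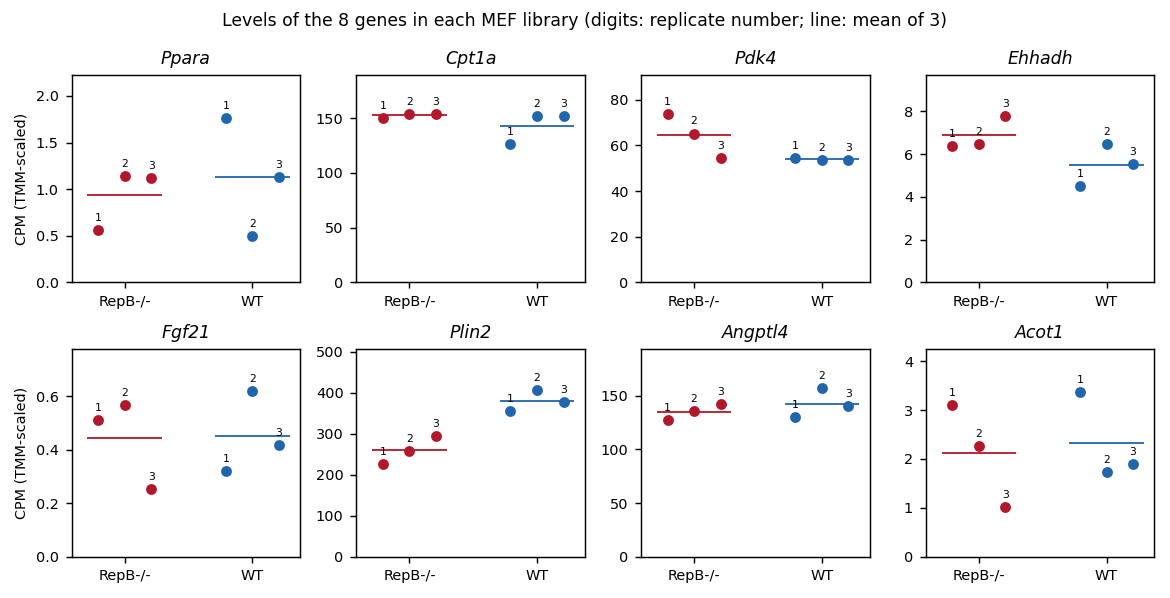
Each panel plots the level of 1 gene in CPM on TMM-scaled library sizes (vertical axis, from 0) for the 6 MEF libraries, with RepB-/- in red, WT in blue, the replicate number above each point and a line at the mean of 3. *Plin2* is the panel in which the genotypes do not overlap, with 227 to 295 CPM in RepB-/- and 356 to 406 CPM in WT cells.

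Of the surrounding pathway, 56 of the 78 genes were tested in MEFs and 26 passed (46.4%), 12 higher and 14 lower in RepB-/- cells, beside 39.1% of all genes (19.4% higher and 19.7% lower). DESeq2 called 25 of the pathway genes, 2 of them in the lipid droplet list, where it called 5128 of 16355 genes. In the lipid droplet list 3 fell and 0 rose of 6 tested in edgeR. These were *Mgll*, which cleaves monoacylglycerol, with 95.2 to 104 CPM against 208 to 287 CPM (log2 fold change -1.32), *Pnpla2*, the lipase that starts triglyceride breakdown (-0.55), and *G0s2*, its inhibitor (-0.36). Of the receptors and coactivators 4 of 11 fell and 0 rose, with *Ppargc1b* at -1.73, *Lpin1* at -0.69 and *Ncoa1* at -0.58. In peroxisomal oxidation 4 of 10 rose and 0 fell, led by *Crot* (0.68), *Acaa1a* (0.58) and *Ech1* (0.35).

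Other lists held both directions. In mitochondrial oxidation *Decr1* (0.69) and *Acaa2* (0.43) rose and *Acadvl* (-0.93), the very-long-chain acyl-CoA dehydrogenase, fell. In ketogenesis *Acat1* rose (0.51), and *Bdh1* fell (-1.93). Of the uptake genes *Cd36* rose (1.31) and *Slc27a1* fell (-0.69). *Lpl* rose (1.35), with 78.1 to 93.0 CPM against 24.4 to 41.1 CPM, and so did *Pdk1* (0.84), while *Cpt1c* (-0.28) and *Acot4* (-0.73) fell. In the glucocorticoid and fasting list 1 of 6 rose, *Tsc22d3* (0.71), and 4 fell, with *Sds* the lowest and *Irs2* at -0.43. DESeq2 called 6 genes of that list. The microsomal Cyp4a genes were not tested in MEFs for low counts.

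Markers of other cells moved with genotype in the MEFs too. The 6 adipocyte markers summed to 2.60 to 3.37 CPM in WT and to 0.258 to 0.510 CPM in RepB-/- libraries, with *Adipoq* at 0.722 to 0.928 CPM and at 0 counts, and *Lep* and *Cidea* at 3 counts or fewer throughout. These sums rest on few reads, at most 53 counts in a WT and 10 in a RepB-/- library. Other lists with few reads were lower in RepB-/- without overlap too. Hepatocyte markers summed to at least 1.25 CPM in WT and at most 0.815 CPM in RepB-/- libraries, from at most 30 counts per library. Erythroid markers summed to at least 0.989 CPM and at most 0.557 CPM, from at most 17 counts. The fetal liver sums and the macrophage and leukocyte sums overlapped. A lower sum was thus not particular to adipocyte markers. The 4 endothelial markers summed to 24.1 to 28.4 CPM in WT and 11.1 to 12.7 CPM in RepB-/- libraries. The fibroblast markers summed to 13186 to 17430 CPM in WT and 19379 to 21496 CPM in RepB-/- libraries. Of the 7 fibroblast markers edgeR called 3 higher and 1 lower in RepB-/- cells. The part of all these markers in the difference of *Plin2* was not tested.

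Between the tissues, the interaction of tissue and genotype called 0 of the 8 members in edgeR, with 0 under an unadjusted p of 0.05 and no other tool run, where 0.388% of 15208 genes were called. For *Plin2* the difference, MEF minus liver, was -0.48 ± 0.33 (SE, adjusted p = 0.565), so that its fall in MEFs was not shown to differ from liver. The genes whose log2 CPM followed that of *Ppara* most closely over the 6 livers were *Dbndd2*, *Taok2*, *Stk35*, *Smad9* and *Slc12a4*, with Pearson correlations of 0.987 to 0.972 over libraries that share depth and TMM scaling, and none of the other 7 members was among them.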

How the data were processed

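Members and gene lists were chosen with earlier results of these data known. Groups and replicate numbers come from the library titles, where B was read as RepB-/- and W as WT. Per the study's methods, stranded paired-end mRNA libraries were sequenced, Cutadapt removed adapters and Hisat2 aligned the reads, and the submitters' processing notes also name Trim Galore 0.4.1, STAR 2.7.0, HTSeq 0.12.4 and DESeq2. Which of these tools gave each table, and which annotation was used, are not given in the sources used here. The authors deposited whole-number read counts per gene, with GRCm38 coordinates for liver and GRCm39 for MEFs, together with TPM for liver and FPKM for MEFs. TPM and FPKM were used to order levels between genes and, where stated, to describe the overlap of libraries. A further 6 per-library columns went unused.

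The tissues were fitted separately in R 4.3.3 with edgeR 4.0.16 (TMM, filterByExpr, quasi-likelihood F test, Benjamini-Hochberg over all genes tested, adjusted p of 0.05), and standard errors were derived from the F statistic. CPM comes from the deposited counts. Named genes are all members, from each list the up to 3 with the largest change past the threshold (otherwise the 2 most abundant), and the 5 most correlated with *Ppara*. *G6pc*, *Gpihbp1* and the markers' sums were named beyond this rule, after their values were seen. Results of a few listed genes are not reported here. The tests of genotype alone in each tissue and of the replicate 1 term in liver were tried on simulated data. Alternatives were DESeq2 1.42.0, its size factors in edgeR, no filter, a replicate block and each library left out, and, added after the data were seen, library size alone, replicates 2 and 3 only and WT libraries only. Deviations of liver libraries with the same number from their genotype means were correlated (0.710, 0.361 and 0.365 for replicates 1, 2 and 3 over 16080 genes). Such deviations sum to 0 within a genotype, so the values of replicates 2 and 3 follow in part from that of replicate 1. They do not show that replicates 2 and 3 are paired, and the labels give no pairing. Promoters come from RefSeq (GRCm38.p6) and shared stretches from GENCODE M21 transcripts. Python 3.11.15 was used with numpy 2.4.6, pandas 2.3.3 and matplotlib 3.10.9.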

Additional observations from a re-analysis of the deposited data

How the results depend on the processing

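The count of 0 members for genotype in liver held under DESeq2, its size factors in edgeR, no filter, library size alone, the replicate block, replicates 2 and 3 only and the omission of each library. The count of 0 with the replicate 1 term held under DESeq2, its size factors in edgeR, no filter and the omission of each library, and the other settings were not run for it. All genes called for genotype in liver were 6, against 80 with DESeq2, 0 on library size alone, 0 without the filter, 2 in replicates 2 and 3 only, 8 with the replicate block, which treats livers of the same number as pairs and changed no call of a member, and 0 to 4 with a library left out. With the replicate 1 term they were 9, against 327 with DESeq2, 28 without the filter and 1 to 5 with a library left out. For replicate 1 in liver, members called were 1, against 5 with DESeq2, 2 without the filter, 2 on library size alone, 4 in WT libraries only, where 1 library stands against 2, and 0 to 2 with a library left out, and all genes called were 2475, against 4140 with DESeq2 and 331 to 2711 with a library left out (331 without WT replicate 1, 556 without RepB-/- replicate 1, 1173 without WT replicate 2 and 1045 without WT replicate 3). For MEFs, members called were 1, against 2 without the filter, where *Pdk4* was added, and 1 to 2 with a library left out. The MEF numbers did not pair the libraries (correlations of -0.01, -0.04 and -0.003), and with the replicate block 1 member and 5006 genes were called. The liver interaction called 9 genes without the filter against 2, and the tissue interaction 37 without the filter and 17 without RepB-/- liver replicate 2 against 59. On library size alone the median log2 fold change of all genes was -0.15 for genotype in liver, 0.26 for replicate 1 and -0.11 in MEFs, and 76.1% in place of 54.7% of the calls for replicate 1 were then higher.

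Signs that turned belonged to members that did not pass the test. For genotype in liver, *Ehhadh* was -0.15 on library size alone, -0.058 in replicates 2 and 3 only and -0.18 to 0.18 with a library left out, *Fgf21* 1.63 in replicates 2 and 3 only and -1.28 to 2.01 with a library left out, *Plin2* 0.084 in replicates 2 and 3 only and -0.33 to 0.13, and *Acot1* -1.05 to 0.34. With the replicate 1 term and a library left out, *Ehhadh* ranged from -0.059 to 0.13, *Fgf21* from -1.12 to 1.63 and *Plin2* from -0.30 to 0.083. For replicate 1, *Ppara* ranged from -0.066 to 0.39 and *Pdk4* from -0.14 to 1.35, and *Pdk4* was -0.10 in WT libraries only. In MEFs, *Cpt1a* was -0.018 on library size alone, and with a library left out *Ppara* ranged from -0.60 to 0.20, *Angptl4* from -0.14 to 0.00089 and *Acot1* from -0.48 to 0.24. The cause of these changes was not tested. Only 3 libraries a group, livers that differed within a genotype, and few counts of *Fgf21* and *Ppara* in MEFs limit the precision, and for *Acot1* reads shared with relatives do so as well.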
